A study of Mus musculus with 6 samples.

Results

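The E2F factors and pocket proteins are 10 genes chosen by name: the activator E2Fs E2f1, E2f2 and E2f3, the canonical repressor E2Fs E2f4 and E2f5, the atypical repressor E2Fs E2f7 and E2f8, and the pocket protein genes Rb1, Rbl1 and Rbl2. All 10 were found among the 55335 gene identifiers of the count tables through GENCODE M21, and all 10 passed the filter on low counts, with at least 69 counts in every library. B16 (here its subline B16-BL6) is a mouse melanoma cell line, and RNA was sequenced from 3 cultures of scrambled control cells (labelled WT, replicates 1, 2 and 3) and 3 cultures of IFNγR1KO cells (replicates 10, 11 and 12). Both groups were transduced with a lentiviral CRISPR-Cas9 vector and selected with puromycin. In the scrambled control the guide was directed at GFP, and in IFNγR1KO cells at exon 1 of Ifngr1, which encodes a chain of the interferon-γ receptor. After selection, cells were grown out from single cells, and the study worked with IFNγR1KO clones rather than a mixed population, so that a difference between clones and an effect of the knockout cannot be told apart. Cells were seeded in triplicate and kept overnight without added interferon-γ, so p-values measure the spread between cultures of a group. The labels do not say whether the IFNγR1KO cultures are of the same clone.

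E2F factors bind, as heterodimers with DP proteins, to promoters of genes needed for DNA replication and cell division. Pocket proteins bind E2Fs and hold these promoters silent until cyclin-dependent kinases phosphorylate them. E2f1, E2f2 and E2f3 drive transcription once freed from Rb1. E2f4 and E2f5 act mainly in repressive complexes with Rbl1 and Rbl2, including the DREAM complex of resting cells. E2f7 and E2f8 repress without a DP partner or a pocket protein, and several members of the family are themselves E2F target genes.

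Libraries held 9402640 to 10579788 counts on genes in scrambled control and 6698956 to 7409479 in IFNγR1KO, so every IFNγR1KO library was shallower. One count was worth 0.0966 to 0.109 CPM (read counts scaled by library total and TMM factor) in scrambled control and 0.135 to 0.142 CPM in IFNγR1KO. Ifngr1, the targeted gene, had 16.7, 14.3 and 16.6 CPM in scrambled control and 11.4, 11.5 and 11.5 CPM in IFNγR1KO libraries. The groups did not overlap, and the log2 fold change was -0.47 (standard error 0.16, edgeR adjusted p = 0.0729). Transcript of the targeted gene was thus still counted in every IFNγR1KO library. The 7 melanoma cell markers ran from 174 to 16149.5 CPM and none was called. Of 14 markers of hematopoietic, endothelial and keratinocyte cells, 9 were at 0 in all 6 libraries and the highest count was 11, for Cd68. Their summed counts were 8 to 17 in scrambled control and 4 to 11 in IFNγR1KO libraries. In RNA of whole cultures, fewer cells in a given state and less RNA per cell cannot be told apart.

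Of the 10 members, 4 were lower in IFNγR1KO cells at an adjusted p under 0.05 and none was higher. The lower members were the activators E2f1 and E2f2, the atypical repressor E2f8 and the pocket protein gene Rbl1. Over all 13642 tested genes, 15.3% were called in either direction, 7.62% lower and 7.73% higher. E2f2 and E2f8 also had a log2 fold change below -1, the limit of a differentially expressed gene (DEG), which 1.96% of tested genes passed in that direction. For 5 members all IFNγR1KO libraries lay below all scrambled control libraries, namely the 4 called members and E2f3. Such separation was seen for 32.6% of tested genes in either direction and 16.6% in the lower direction. DESeq2 called the same 4 members, against 7.17% of genes called lower by that test. The members that did not pass the test were E2f3, E2f4, E2f5, E2f7, Rb1 and Rbl2.

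**Figure D1:**
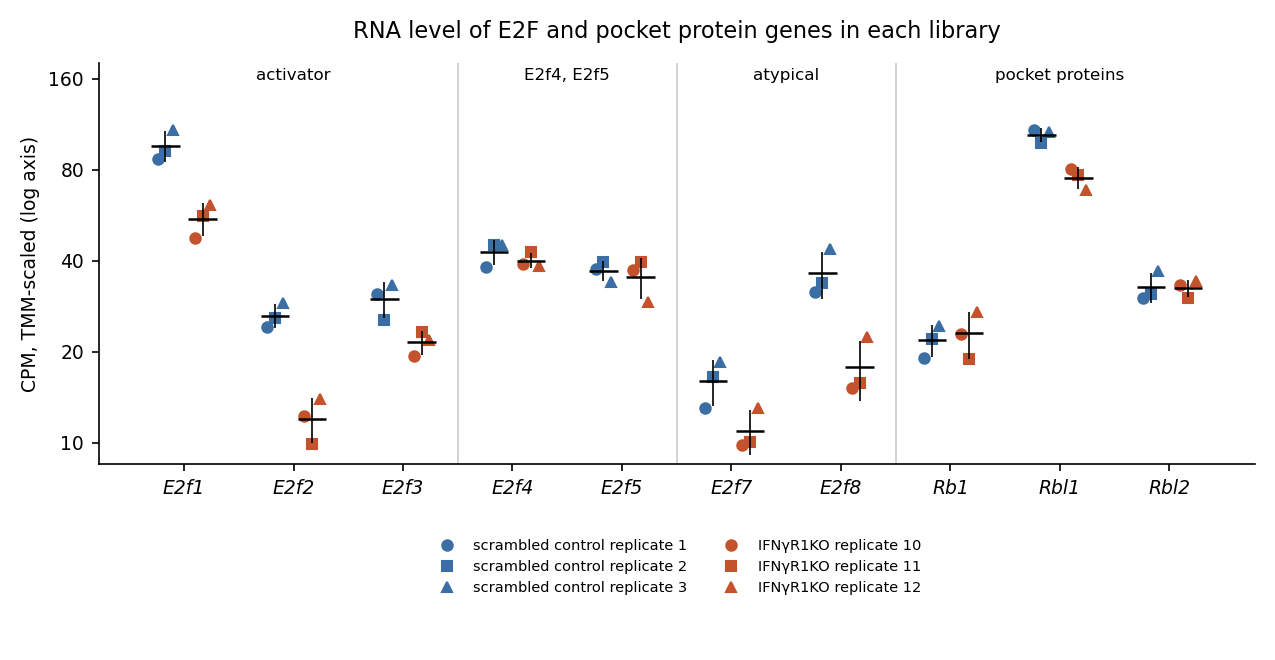
CPM on a log axis of the 10 members in each of the 6 libraries, scrambled control in blue and IFNγR1KO in orange, with 1 symbol shape per replicate, the horizontal line at the group mean and the vertical line at ± 1 SD. The orange points of E2f1, E2f2, E2f3, E2f8 and Rbl1 lie below all blue points of the same gene, and those of E2f4, E2f5, E2f7, Rb1 and Rbl2 overlap them.

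**Figure D2:**
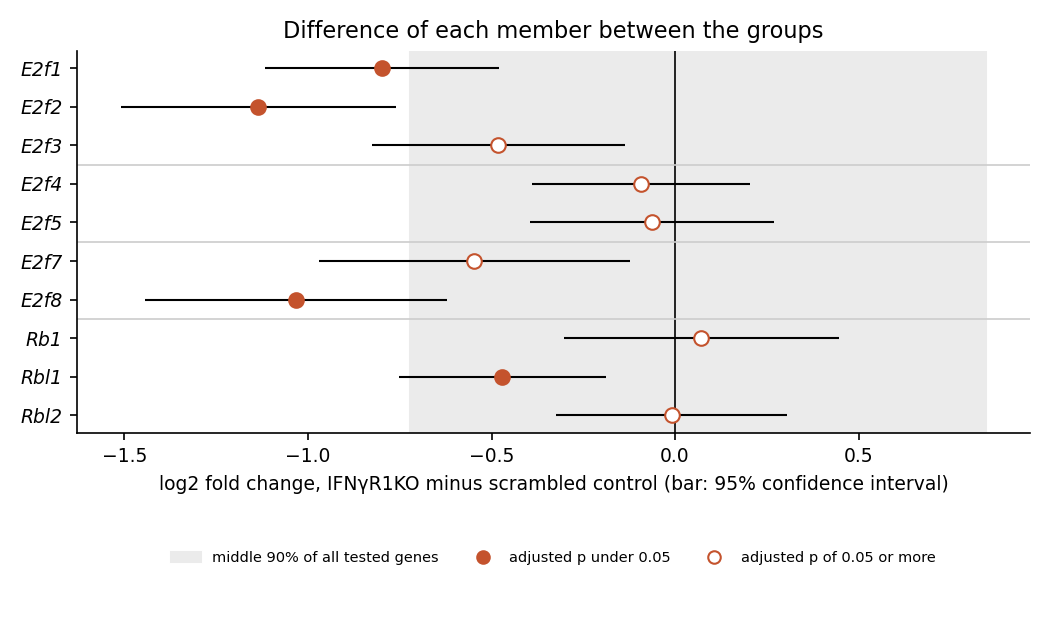
Log2 fold change of each member, IFNγR1KO minus scrambled control, with its 95% confidence interval from edgeR. Filled points passed an adjusted p of 0.05, open points did not, and the grey band spans the middle 90% of tested genes, from -0.72 to 0.85, outside which E2f1, E2f2 and E2f8 lie.

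Promoter windows of members were searched for the E2F element, through which the family can regulate its own genes. RefSeq windows of GRCm38.p6, from 250 bases before to 50 bases after a transcription start, were matched for 7 of the 10 members, in 9 windows. No window was at hand for E2f4, E2f5 and Rb1. An E2F element was any of TTTCCCGC, TTTCGCGC, TTTGCCGC and TTTGGCGC, and the CHR element, through which DREAM binds late cell cycle genes, was TTTGAA, each searched on both strands. No matches overlapped each other. The windows of E2f2 (chr4:136172024-136172323, plus strand), E2f3 (chr13:29986014-29986313, minus strand), Rbl1 (chr2:157204485-157204784, minus strand) and E2f8 (chr7:48881547-48881846, minus strand) are given 5′ to 3′ with the matches in capitals, because they cover 3 called members and the window that holds both elements.
E2f2: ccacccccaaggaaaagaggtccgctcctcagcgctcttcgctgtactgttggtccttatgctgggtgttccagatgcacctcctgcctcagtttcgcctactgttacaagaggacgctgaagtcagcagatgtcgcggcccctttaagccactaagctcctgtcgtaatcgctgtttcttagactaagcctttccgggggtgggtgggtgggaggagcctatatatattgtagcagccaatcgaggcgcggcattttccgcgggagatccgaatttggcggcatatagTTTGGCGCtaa
E2f3: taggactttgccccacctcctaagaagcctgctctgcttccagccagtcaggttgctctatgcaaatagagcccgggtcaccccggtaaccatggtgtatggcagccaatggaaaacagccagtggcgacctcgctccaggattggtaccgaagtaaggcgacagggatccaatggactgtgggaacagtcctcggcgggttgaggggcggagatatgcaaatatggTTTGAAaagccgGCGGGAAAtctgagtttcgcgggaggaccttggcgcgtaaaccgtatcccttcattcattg
Rbl1: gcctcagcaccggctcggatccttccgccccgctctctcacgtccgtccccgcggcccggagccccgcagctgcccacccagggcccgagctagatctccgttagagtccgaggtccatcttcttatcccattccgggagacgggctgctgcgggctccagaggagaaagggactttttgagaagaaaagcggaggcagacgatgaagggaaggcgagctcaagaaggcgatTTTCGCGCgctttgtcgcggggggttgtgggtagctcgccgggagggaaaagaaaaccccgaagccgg
E2f8: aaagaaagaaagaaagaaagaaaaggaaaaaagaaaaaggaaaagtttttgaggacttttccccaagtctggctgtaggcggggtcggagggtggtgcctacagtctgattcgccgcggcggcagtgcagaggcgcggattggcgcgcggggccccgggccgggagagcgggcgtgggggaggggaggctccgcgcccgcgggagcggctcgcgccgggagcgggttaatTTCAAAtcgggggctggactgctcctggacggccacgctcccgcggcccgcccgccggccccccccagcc
Positions are counted from the RefSeq start, which was also the outermost GENCODE start for the printed windows of E2f3, Rbl1 and E2f8 and lay 120 bases upstream of it for E2f2. In the E2f2 window TTTGGCGC begins at position 40 and so lies upstream of the GENCODE start. The E2f3 window holds TTTCCCGC on the opposite strand, read as GCGGGAAA, from position -11, and TTTGAA from position -23. TTTCGCGC begins at position -18 of the Rbl1 window, and the E2f8 window holds TTTGAA on the opposite strand, read as TTCAAA, from position -20. Of the windows not printed, that of E2f7 holds an E2F element at position -198, that of Rbl2 a CHR element at position -201, and the downstream window of E2f2 a CHR element at position -31. The window matched for E2f1 starts from a RefSeq position 466 bases downstream of the outermost GENCODE start and lies wholly inside the gene, so the sequence before that GENCODE start was not searched. This window and the downstream window of E2f3 hold neither set of letters. The lack of a match in a window, also of an E2F element in that of E2f8, says nothing about binding there. Over all 32851 mouse windows, 2.26% hold an E2F element and 17.9% a CHR element.

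Among the activators, E2f1 (ENSMUSG00000027490.17, chr2:154559407-154569892, minus strand of GRCm38), the activator also linked to cell death, had the highest RNA level. It had 798, 929 and 1122 counts in scrambled control and 336, 416 and 435 counts in IFNγR1KO libraries, which are 86.6, 92.4 and 108.4 CPM against 47.7, 56.4 and 61.2 CPM. All IFNγR1KO libraries were below all scrambled control libraries, with means of 95.8 ± 11.3 and 55.1 ± 6.80 CPM (SD, n = 3 each). E2f1 fell to 57.5% of the scrambled control level, a log2 fold change of -0.80 (standard error 0.15, 95% confidence interval -1.12 to -0.48, edgeR adjusted p = 0.0034). The two-sided exact permutation test gave p = 0.1, the smallest that 3 libraries against 3 allow and the value for every member whose groups did not overlap. Of the tested genes, 3.79% had a lower log2 fold change than E2f1.

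E2f2 (ENSMUSG00000018983.9, chr4:136172394-136196057, plus strand), a second activator, differed most of all members. It had 223, 260 and 300 counts in scrambled control and 86, 73 and 99 in IFNγR1KO libraries, or 24.2, 25.9 and 29.0 CPM against 12.2, 9.89 and 13.9 CPM. The groups were far apart, with the highest IFNγR1KO library below the lowest scrambled control library. Means were 26.4 ± 2.43 CPM in scrambled control and 12.0 ± 2.02 CPM in IFNγR1KO (SD, n = 3 each), and E2f2 fell to 45.5% of the control level (log2 fold change -1.14, standard error 0.17, 95% confidence interval -1.51 to -0.76, edgeR adjusted p = 0.00115). The share of tested genes with a lower log2 fold change was 1.47%.

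E2f3 (ENSMUSG00000016477.18, chr13:29906575-29986063, minus strand), the activator whose locus gives rise to a long and a short protein form that gene counts do not separate, did not pass the test. It had 287, 256 and 345 counts in scrambled control and 136, 171 and 156 in IFNγR1KO libraries, or 31.2, 25.5 and 33.3 CPM against 19.3, 23.2 and 21.9 CPM. The groups did not overlap, although scrambled control replicate 2 and IFNγR1KO replicate 11 were close. Means were 29.99 ± 4.06 and 21.5 ± 1.96 CPM (SD, n = 3 each), and the log2 fold change was -0.48 (standard error 0.16, 95% confidence interval -0.82 to -0.14, edgeR adjusted p = 0.0593). Without the filter on low counts, the adjusted p of E2f3 was 0.0401.

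The canonical repressors E2f4 and E2f5 did not pass the test, and the levels of both overlapped between groups. E2f4 (ENSMUSG00000014859.9, chr8:105297663-105305370, plus strand), the main E2F of resting cells, had 37.995, 45.1 and 45.03 CPM in scrambled control and 38.9, 42.7 and 38.5 CPM in IFNγR1KO libraries. Its counts were 350, 453 and 466 against 274, 315 and 274. The IFNγR1KO libraries lay within the range of the scrambled control libraries, and the log2 fold change was -0.09 (standard error 0.14, 95% confidence interval -0.39 to 0.20, edgeR adjusted p = 0.712, exact permutation p = 0.4).

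E2f5 (ENSMUSG00000027552.14, chr3:14578641-14606309, plus strand), the other E2F of this kind, had 345, 398 and 352 counts in scrambled control and 263, 293 and 208 in IFNγR1KO libraries. These are 37.5, 39.6 and 34.0 CPM against 37.4, 39.7 and 29.2 CPM. IFNγR1KO replicate 12 was the lowest library, and replicates 10 and 11 were level with the scrambled control. The log2 fold change was -0.06 (standard error 0.15, 95% confidence interval -0.39 to 0.27, edgeR adjusted p = 0.834, exact permutation p = 0.8). Without IFNγR1KO replicate 12 the difference was 0.05, so its sign rests on that library. The intervals of E2f4 and E2f5 lie above the estimates of E2f1 and E2f2, and they leave room for modest differences in either direction.

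Of the atypical repressors, E2f8 was lower in IFNγR1KO cells and E2f7 did not pass the test. E2f8 (ENSMUSG00000046179.17, chr7:48866429-48881596, minus strand), which represses E2f1 and other E2F targets late in S phase, had 290, 340 and 451 counts in scrambled control and 107, 116 and 159 in IFNγR1KO libraries. These are 31.5, 33.8 and 43.6 CPM against 15.2, 15.7 and 22.4 CPM. Replicate 3 of scrambled control and replicate 12 of IFNγR1KO stood above the other libraries of their groups, and the groups did not overlap. Means were 36.3 ± 6.42 and 17.8 ± 3.99 CPM (SD, n = 3 each). E2f8 thus fell to 48.9% of the control level (log2 fold change -1.03, standard error 0.19, 95% confidence interval -1.44 to -0.62, edgeR adjusted p = 0.00341). A lower log2 fold change was seen for 1.97% of tested genes. Of the exonic bases of E2f8, 11.2% overlap Gm2788 on the other strand, and as the strand setting of the counting is not given in the sources used here, reads there cannot be told apart.

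E2f7 (ENSMUSG00000020185.16, chr10:110745439-110787384, plus strand), the partner of E2f8 in heterodimers, was the member with the fewest counts, 120, 166 and 191 in scrambled control and 69, 74 and 93 in IFNγR1KO libraries. These are 13.03, 16.5 and 18.5 CPM against 9.80, 10.03 and 13.07 CPM. The groups overlapped by a single pair, IFNγR1KO replicate 12 being level with scrambled control replicate 1. The log2 fold change was -0.55 (standard error 0.20, 95% confidence interval -0.97 to -0.12, edgeR adjusted p = 0.0790, exact permutation p = 0.2). E2f7 passed the test without IFNγR1KO replicate 12 (log2 fold change -0.70, edgeR adjusted p = 0.0243) and without the filter on low counts (adjusted p = 0.0394).

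Of the pocket protein genes, Rbl1 was lower in IFNγR1KO cells, whereas Rb1 and Rbl2 did not pass the test. Rbl1 (ENSMUSG00000027641.13, chr2:157145893-157204534, minus strand), the pocket protein gene that cycling cells transcribe through E2F, had 996, 989 and 1105 counts in scrambled control and 568, 568 and 487 in IFNγR1KO libraries. In CPM these are 108, 98.4 and 107 against 80.7, 76.9 and 68.5. The groups did not overlap, and Rbl1 was the only member whose highest IFNγR1KO library was replicate 10. Means were 104 ± 5.27 and 75.4 ± 6.27 CPM (SD, n = 3 each). Rbl1 fell to 72.2% of the control level (log2 fold change -0.47, standard error 0.13, 95% confidence interval -0.75 to -0.19, edgeR adjusted p = 0.0290). The call was lost when any 1 of the 6 libraries was left out (edgeR adjusted p of 0.0577 to 0.122, log2 fold change of -0.52 to -0.41).

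Rb1 (ENSMUSG00000022105.6, chr14:73183673-73325822, minus strand), the retinoblastoma gene, had 176, 222 and 252 counts in scrambled control and 161, 140 and 193 in IFNγR1KO libraries. These are 19.1, 22.1 and 24.4 CPM against 22.9, 19.0 and 27.1 CPM. IFNγR1KO libraries held both the lowest and the highest value. The log2 fold change was 0.07 (standard error 0.17, 95% confidence interval -0.30 to 0.45, edgeR adjusted p = 0.833, exact permutation p = 0.8). Rbl2 (ENSMUSG00000031666.15, chr8:91070057-91123844, plus strand), the pocket protein gene most active in resting cells, had 277, 311 and 383 counts against 234, 222 and 243. Its groups overlapped almost fully, with 30.1, 30.9 and 37.0 CPM against 33.2, 30.1 and 34.2 CPM. The log2 fold change was -0.01 (standard error 0.14, 95% confidence interval -0.32 to 0.31, edgeR adjusted p = 0.977, exact permutation p = 1). Genes on the other strand overlap 14.9% of the exonic bases of Rb1 (Lpar6 and Rcbtb2) and 20.97% of those of Rbl2 (Aktip and Gm45464).

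Libraries within a group differed in the same way for several members. Scrambled control replicate 3 was the highest library of its group for 7 members, and replicate 1 the lowest for 7. IFNγR1KO replicate 12 was the highest of its group for 6 members. These replicates also stood apart by gene length over all tested genes. In the quintile of genes with the longest exons, 7141 bases or more, the median deviation from the group mean was 0.17 on the log2 scale for scrambled control replicate 3 and 0.14 for IFNγR1KO replicate 12, against -0.12 to -0.04 for the other libraries. In the quintile of 1754 to 3190 bases, which holds E2f1, E2f4 and E2f5, it was -0.07 and -0.08 for these replicates. Within their groups E2f1 was highest and E2f5 lowest in both replicates, and E2f4 was lowest in IFNγR1KO replicate 12. A link between length and the order of libraries was not tested. The median log2 fold change by quintile of exonic length ran from -0.02 to 0.03. Without scrambled control replicate 3, E2f1, E2f2 and E2f8 had log2 fold changes of -0.70, -1.06 and -0.88, and all 3 were called.

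Levels of different genes were compared per kilobase of annotated exons, merged over all transcripts of a gene. Which of these transcripts the cells express was not measured. On this scale E2f1 was the most abundant member in scrambled control cells at 30.4 ± 3.58 CPM per kb (SD, n = 3). E2f5 followed at 20.8 ± 1.58, then Rbl1 at 17.4 ± 0.879 and E2f4 at 17.4 ± 1.66 CPM per kb, the last pair overlapping between libraries. E2f8 at 6.67 ± 1.18, E2f3 at 5.52 ± 0.748 and E2f2 at 5.40 ± 0.497 CPM per kb formed a middle group in which each neighbour overlapped the next. Rbl2 at 4.32 ± 0.5002 and Rb1 at 3.63 ± 0.437 CPM per kb overlapped as well, and E2f7 was the least abundant at 1.78 ± 0.305 CPM per kb. In IFNγR1KO cells E2f5 had the highest mean, at 19.9 ± 3.08 CPM per kb, and E2f1 was at 17.5 ± 2.16, with libraries that overlapped those of E2f5 and of E2f4 (16.3 ± 0.934 CPM per kb). Rbl1 lay below these at 12.6 ± 1.05 CPM per kb. Rbl2, E2f3, Rb1, E2f8 and E2f2 followed in that order from 4.30 ± 0.284 to 2.46 ± 0.414 CPM per kb, each overlapping the next, and E2f7 was again the least abundant at 1.22 ± 0.203 CPM per kb. E2f2 and E2f8, which stood above Rb1 and Rbl2 by their means in scrambled control, thus had lower means than both in IFNγR1KO.

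**Figure D3:**
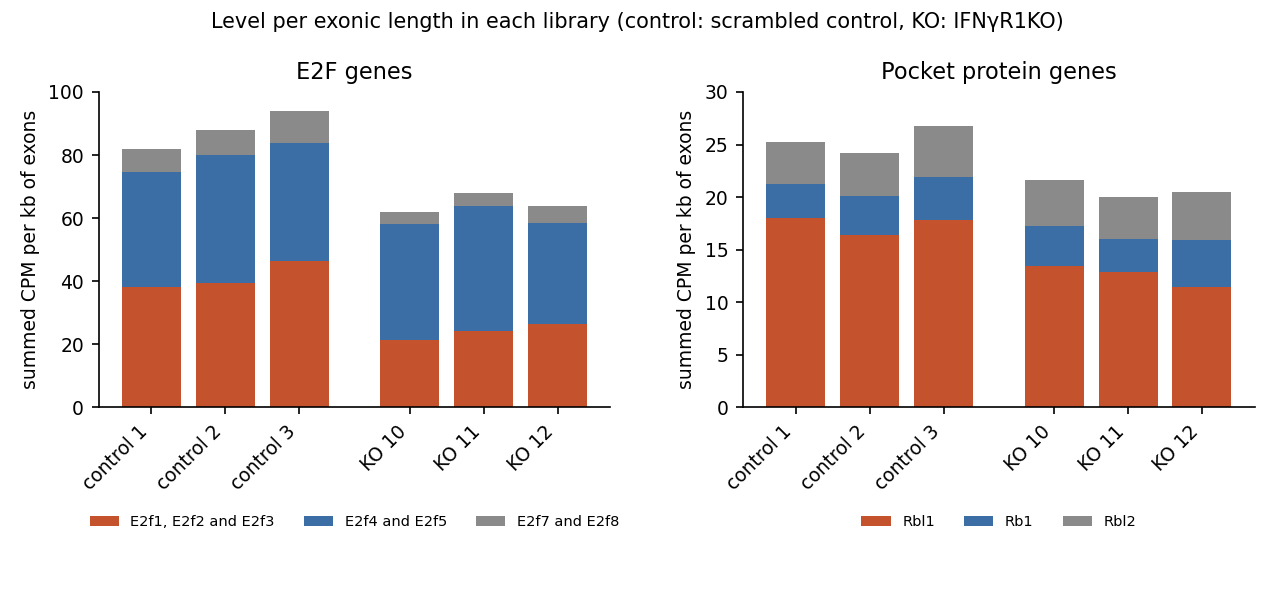
Stacked bars of the summed CPM per kb of exons in each of the 6 libraries, for the 7 E2F members at left and the 3 pocket protein genes at right, with axes from 0. The E2F bars are shorter in IFNγR1KO libraries mainly in the segment of E2f1, E2f2 and E2f3, while the segment of E2f4 and E2f5 overlaps between groups. The pocket protein bars are shorter in the Rbl1 segment.

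The shares that each class gave of the summed RNA of the 7 E2F members did not overlap between the groups. E2f6, an E2F gene that is not a member, was left out, so these are not shares of all E2F RNA. Its means were 113 CPM in scrambled control and 71.8 CPM in IFNγR1KO. Summed over the 7 E2F members, the level was 87.9 ± 6.03 CPM per kb in scrambled control and 64.6 ± 3.01 CPM per kb in IFNγR1KO (SD, n = 3 each). The activators gave 46.6%, 44.7% and 49.4% of it in scrambled control and 34.2%, 35.6% and 41.1% in IFNγR1KO libraries. E2f4 and E2f5 gave 44.6%, 46.2% and 39.9% against 59.5%, 58.5% and 50.2%, although their own summed level overlapped between groups (38.2 ± 2.14 and 36.2 ± 3.82 CPM per kb). E2f7 and E2f8 gave 8.83%, 9.15% and 10.7% against 6.27%, 5.90% and 8.69%. In each of these 3 shares, IFNγR1KO replicate 12 was the library closest to scrambled control. Among the pocket protein genes, the share of Rbl1 was 68.7% ± 2.61 in scrambled control and 60.8% ± 4.39 in IFNγR1KO, without overlap between libraries, and that of Rb1 and Rbl2 was correspondingly higher. These shares describe RNA and were not tested.

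The contrast of activators against repressors depended on which repressor members were used. It is on the scale of log2 CPM without correction for exonic length, so that it can be read between groups but not as which class is more abundant. As the mean log2 CPM of E2f1, E2f2 and E2f3 minus that of E2f4, E2f5, E2f7 and E2f8, it was 0.54, 0.31 and 0.50 in scrambled control and 0.05, 0.05 and 0.15 in IFNγR1KO libraries. All IFNγR1KO libraries were lower, and the difference of the group means was -0.37. Against E2f4 and E2f5 alone the group means were 0.09 ± 0.18 and -0.63 ± 0.26, again without overlap, and their difference was -0.72. Against E2f7 and E2f8 alone they were 0.81 ± 0.15 and 0.80 ± 0.15, with overlapping libraries and a difference of -0.018. E2f6, a repressor that is not a member, was in none of these contrasts (its log2 fold change was -0.65). No test was made of these scores, since the genes were chosen with results known.

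Genes for the DP partners of the E2Fs, and E2f6, an E2F gene that is not a member, were measured beside the members. Of Tfdp1, Tfdp2 and E2f6, 2 were called lower, where 7.62% of all tested genes were called lower. The median log2 fold change of these 3 genes was -0.65, against -0.00 over all tested genes. Tfdp1, which encodes the main DP partner, had 146, 152 and 157 CPM in scrambled control and 85.0, 82.9 and 89.6 CPM in IFNγR1KO libraries, a log2 fold change of -0.82 (standard error 0.13, edgeR adjusted p = 0.00115). E2f6, a repressor that works without pocket proteins through polycomb-type complexes, fell by 0.65 on the log2 scale (edgeR adjusted p = 0.0055). Of 7 genes of the MuvB core, with B-Myb and FoxM1, Mybl2 (-0.72, adjusted p = 0.0191) and Foxm1 (-0.56, adjusted p = 0.0443), the transcription factors that act after S phase, were called lower, and the other 5, all from the MuvB core, did not pass the test. The median of that list was -0.14, and 28.6% of it was called lower, against 7.62% of all tested genes.

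Upstream of the pocket proteins, 5 of 9 genes for their kinases and cyclins were called, all lower (7.62% of all tested genes were called lower), with a median log2 fold change of -0.60. Ccne1 and Ccne2, the E-type cyclins, and Ccna2, the A-type cyclin of S phase, which also belong to the list of G1/S target genes, had log2 fold changes of -0.82, -1.14 and -0.86 (edgeR adjusted p = 0.00228, 0.00288 and 0.0014). The other called genes were the D-type cyclins Ccnd1 (-0.97) and Ccnd3 (-0.60), named to complete the count. Genes on the other strand overlap 23.4% of the exonic bases of Ccnd1, 17.4% of those of Ccne2 and 12.5% of those of Ccna2. The remaining D-type cyclin gene, Ccnd2, had 289, 262 and 400 CPM in scrambled control and 431, 448 and 510 CPM in IFNγR1KO libraries. All IFNγR1KO libraries were higher, and the log2 fold change of 0.55 did not pass edgeR's test (adjusted p = 0.0513) but passed that of DESeq2 (adjusted p = 0.0259). Cdk2, Cdk4 and Cdk6 did not pass the test. Among the CDK inhibitors, 4 of 7 were tested. Cdkn1b, an inhibitor of CDK2 that accumulates in resting cells, rose from 116 ± 16.96 to 216 ± 47.3 CPM (SD, n = 3 each, log2 fold change 0.90, edgeR adjusted p = 0.00476). Cdkn2c and Cdkn2d, inhibitors of CDK4 and CDK6, were lower (-0.76 and -0.61, edgeR adjusted p = 0.00281 and 0.0133), and Cdkn1a did not pass the test. Cdkn2a and Cdkn2b were at 0 counts in all 6 libraries, which allows up to 3 counts in each, and Cdkn1c had too few counts to be tested.

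Downstream, 44 of 55 E2F target genes of G1/S were called lower (80%, against 7.62% of all tested genes) and none higher, with Ccne1, Ccne2, Ccna2 and Mybl2 counted here and in the lists above. Their log2 fold changes ran from -1.42 to 0.19 with a median of -0.81. Of the 55 genes, 16 were DEGs in the lower direction, where 1.96% of all tested genes were. Uhrf1, which maintains DNA methylation behind the replication fork, had 219, 251 and 296 CPM in scrambled control and 72.7, 90.5 and 122 CPM in IFNγR1KO libraries (log2 fold change -1.42, edgeR adjusted p = 5e-04). Rrm2, a subunit of ribonucleotide reductase, and Asf1b, a histone chaperone, were lower as well (-1.05 and -1.02, edgeR adjusted p = 0.000392 and 0.000418). An E2F element lies in 37.3% of the 51 promoter windows matched for 43 genes of this list, and a CHR element in 13.7%.

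Of 34 G2/M genes bound by DREAM, 25 were called lower (73.5%, against 7.62% of all tested genes) and none higher. The log2 fold changes of this list ran from -1.34 to -0.07 with a median of -0.67. Ttk, the spindle checkpoint kinase, had 25.8, 30.4 and 31.1 CPM in scrambled control and 12.6, 11.8 and 10.1 CPM in IFNγR1KO libraries (log2 fold change -1.34, edgeR adjusted p = 0.000283). Plk1, a mitotic kinase, and Kif23, a kinesin of cytokinesis, followed (-1.18 and -1.12, edgeR adjusted p = 0.000419 and 0.000476). The count of called genes in this list was 16 without scrambled control replicate 2 and 14 without IFNγR1KO replicate 11. Over all tested genes, those called lower went from 1039 to 552 and 457 in the same settings. A CHR element lies in 77.4% of the 31 windows matched for 29 of these genes and an E2F element in 3.23%. Target genes of both phases thus had lower RNA in the cultures in which E2f1, E2f2, E2f8 and Rbl1 had lower RNA, and the data hold no measure of E2F protein or binding.

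**Figure D4:**
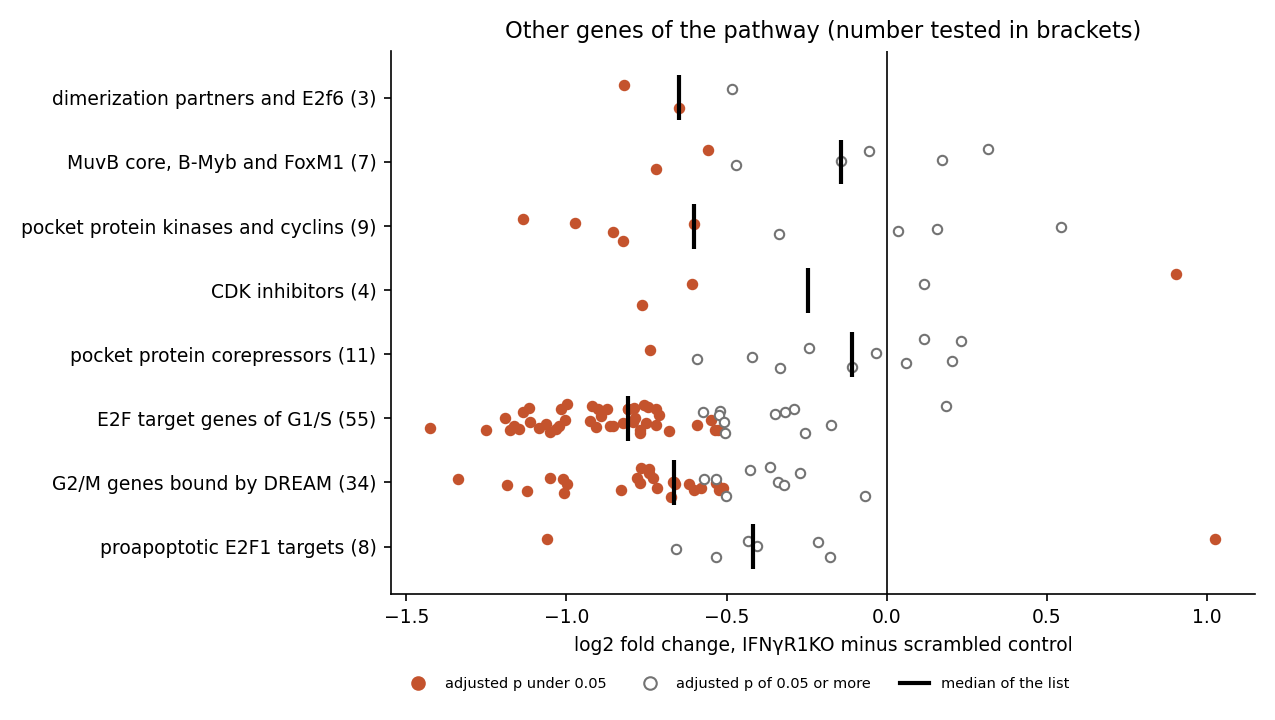
Log2 fold change, IFNγR1KO minus scrambled control, of each tested gene in 8 lists of pathway genes, with filled points for an adjusted p under 0.05, open points for the rest and a bar at the median of the list. Points of the lists of G1/S and G2/M target genes lie to the left of 0 apart from 1 gene of the G1/S list at 0.19, and the corepressor genes lie on both sides of 0.

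Genes of the corepressors that pocket proteins recruit were called in 1 of 11 cases, or 9.09%, near the 7.62% called lower and 15.3% called in either direction over all tested genes. This was Suv39h1, a histone methyltransferase, with means of 57.5 ± 1.92 and 34.5 ± 3.94 CPM in scrambled control and IFNγR1KO (SD, n = 3 each, log2 fold change -0.74, edgeR adjusted p = 0.0036), and the median of the list was -0.11. Of 11 proapoptotic target genes of E2F1, 8 were tested, with a median log2 fold change of -0.42. For 7 of these 8 the log2 fold change was below 0, against 6848 of all 13642 tested genes. Bbc3, a BH3-only activator of cell death, was higher (log2 fold change 1.03, edgeR adjusted p = 0.00329), from 9.44, 9.25 and 6.96 CPM in scrambled control to 19.0, 18.0 and 15.2 CPM in IFNγR1KO libraries.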

How the data were processed

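Poly(A)-selected RNA of 6 cultures was sequenced with paired-end reads. The authors used STAR 2.7.5a for alignment to GRCm38 and HTSeq 0.11.2 for counting, and the deposited values are raw read counts per gene, 1 table per library, neither normalized nor filtered. The annotation release and strand setting are not given in the sources used here. Rows that name no gene were left out of library totals. Of these, reads on no gene came to 46.9% to 47.7% per library, ambiguous reads to 1.57% to 1.85% and reads with multiple alignments to 3.76% to 4.61%, as a share of all counted reads.

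Symbols, positions and exonic lengths came from GENCODE M21, which holds 55154 of 55335 identifiers. The groups were compared with edgeR 4.0.16 in R 4.3.3 (filterByExpr with a minimum count of 10 and a minimum total of 15, TMM, quasi-likelihood test, Benjamini-Hochberg adjustment over all tested genes), where the study used DESeq2. Genes were called at an adjusted p under 0.05, and DEGs also had an absolute log2 fold change above 1. Log2 CPM used a prior count of 2. The scripts were tested on simulated data. All replicate pairs differed by more than sampling noise (chi-square per degree of freedom of 2.74 to 24.7). Alternatives were DESeq2 1.42.0, voom in limma 3.58.1, other normalizations, no filter, thinning to equal totals, an adjusted p of 0.01 and leaving out each library.

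The members and gene lists were chosen with earlier results of these data known. Beside the members and Ifngr1, the text names the called genes of smallest adjusted p, up to 3 in each direction of a list, and genes named beyond this were chosen after their values were seen. Of the genes so selected, 1 is not reported here. Intervals cover the spread between cultures, and counts of reads without molecular identifiers are not independent molecules.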

Additional observations from a re-analysis of the deposited data

How the results depend on the processing

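E2f1, E2f2 and E2f8 were called under every alternative, and all 4 called members under DESeq2, voom, RLE, upper-quartile scaling and thinning. Members called came to 6 without the filter on low counts and 3 at an adjusted p under 0.01. Without the filter, E2f3 (log2 fold change -0.51, adjusted p = 0.0401) and E2f7 (-0.58, adjusted p = 0.0394) passed the test. Leaving out 1 library at a time gave log2 fold changes of -0.52 to -0.41 for Rbl1, which then did not pass, -0.70 to -0.43 for E2f7, which passed without IFNγR1KO replicate 12 (-0.70), -0.14 to 0.055 for E2f5, whose sign turned without IFNγR1KO replicate 12 (0.055), -0.068 to 0.21 for Rb1, whose sign turned without scrambled control replicate 1 (-0.017) or IFNγR1KO replicate 12 (-0.068), and -0.067 to 0.090 for Rbl2, whose sign turned without scrambled control replicate 3 (0.090) or IFNγR1KO replicate 11 (0.060). The sign of Rbl2 also turned with upper-quartile scaling (0.029) and thinning (0.0028). The activator minus repressor difference was -0.44 to -0.32 with 1 library left out, -0.72 against E2f4 and E2f5 and -0.018 against E2f7 and E2f8. An adjusted p under 0.01 left 871 genes called, 417 of them lower, and 16 of the G2/M genes. With 1 library left out, 1028 to 2824 genes were called, 457 to 1452 of them lower, with the fewest without scrambled control replicate 2 (1087, 552 lower), IFNγR1KO replicate 10 (1095, 525 lower) or IFNγR1KO replicate 11 (1028, 457 lower). The G2/M genes called were then 14 to 27 and the G1/S genes 36 to 47. The cause of these changes was not tested. The median log2 fold change of all genes was -0.00 to 0.04 over normalizations. No paired analysis was possible because the replicate numbers of the groups, 1 to 3 and 10 to 12, are not shared. E2f7 is the member with the fewest counts (69 in its lowest library) and the widest confidence interval.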

Other observations

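Differences between pairs of members within a library were chosen after their values were seen and are given with no test. They are in log2 CPM without correction for exonic length, so they can be compared between groups but do not say which gene of a pair is more abundant. The difference E2f1 minus E2f4 was 1.16 ± 0.12 in scrambled control and 0.45 ± 0.19 in IFNγR1KO (SD, n = 3 each), without overlap between libraries. E2f8 minus E2f5 was -0.25, -0.23 and 0.36 in scrambled control and -1.28, -1.32 and -0.38 in IFNγR1KO libraries, also without overlap, and in both groups 1 library, scrambled control replicate 3 and IFNγR1KO replicate 12, stood above the others. Rbl1 minus Rbl2 was 1.67 ± 0.16 in scrambled control and 1.21 ± 0.18 in IFNγR1KO, and Rbl1 minus Rb1 was 2.25 ± 0.20 and 1.71 ± 0.35, again without overlap. E2f1 minus the atypical repressor E2f8 overlapped between groups, at 1.40 ± 0.08 and 1.64 ± 0.19.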
